A study of Mus musculus with 28 samples.

Results

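The genes described here are the receptor genes for IL-12 (*Il12rb1* and *Il12rb2*), IL-18 (*Il18r1* and *Il18rap*) and IFNγ (*Ifngr1* and *Ifngr2*), and the Th1 cytokine genes *Ifng* and *Tnf*. They were taken by symbol from the deposited table, and all 8 were found among its 53801 features. They were followed through Treg cells of 2 tissues and 2 treatments, to ask where these cells carry the receptors for Th1-inducing cytokines and whether αPD1 + αGITR altered them.

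All mice carried tumors of CT2A, a murine glioblastoma (GBM) cell line, in the forebrain. Once tumors had reached 2 mm3 the mice were randomized to IgG2a, the isotype control, or to αPD1 + αGITR, antibodies against the checkpoint receptor PD1 and the co-stimulatory receptor GITR. They received 4 treatments at 250.0 µg per mouse, 3 days apart, and tissue was taken 2 days after the last. TCR+CD4+CD25hiCD127lo cells were sorted as Treg cells by these surface proteins, with TCR+CD8+ cells kept out, and polyA RNA was sequenced in bulk by Smart-Seq2, which copies full-length transcripts from few cells. The libraries used were 7 from spleens and 5 from tumors after IgG2a, and 8 from spleens and 7 from tumors after αPD1 + αGITR. Of the 9 treated spleens described, 1 was not analysed here. Each spleen or tumor came from a different mouse by the submitters' account, and strain, sex and age are not given in the labels. The study's own description of these data gives fewer animals than there are splenic libraries. Several splenic libraries share a label number, as do tumor_70_a with tumor_70_b and tumor_73_a with tumor_73_b. Where any share a mouse, the p-values of the comparisons that hold them would be too small, that of treatment in GBM included.

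IL-12 signals through a receptor of 2 chains, of which IL-12Rβ1 is shared with IL-23 and IL-12Rβ2 is specific to IL-12 and carries the signal to STAT4. IL-18 binds IL-18R1 and then recruits the accessory chain IL-18RAP, which signals through MyD88 and NF-κB, and together with IL-12 it drives IFNγ production in Th1 and NK cells. IFNγ binds IFNγR1, which pairs with IFNγR2 to activate the kinases JAK1 and JAK2 and so induces a wide set of genes for antigen presentation and cell defence.

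Values are TPM, transcript abundances scaled for gene length and to a fixed total in each library, so levels of different genes can be compared. Groups were compared on log2(TPM + 1) with limma, which gives a two-sided p adjusted by the Benjamini-Hochberg method over all genes tested in a comparison, and differences are log2 fold changes on that scale, which understates those of low genes. A gene entered a test where 1 or both groups compared had a mean TPM above 10, and was called where its adjusted p was under 0.05, so a gene low in 1 group entered through the other. A looser rule, an unadjusted p under 0.05 with a change of more than 2-fold, was counted beside it. Exact permutation tests over the libraries, also two-sided, were made for each gene. The depth of the libraries in reads is unknown.

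The libraries carried the RNA of the sorted cell type. All 8 Treg cell markers and all 7 T cell markers had a median above 1 TPM in each group, and *Foxp3*, the lineage factor of Treg cells, was listed at 21.5 to 440.4 TPM. The number of genes above 1 TPM ranged from 7702 to 17460. The Treg cell markers summed to medians of 358 and 475 TPM in the splenic groups, after IgG2a and αPD1 + αGITR, against 1062 and 1779 TPM in the GBM groups. The T cell markers gave 814 and 938 TPM against 1246 and 2075 TPM, and the 10 most abundant features took up to 78.3% of a splenic and up to 64.8% of a GBM library. The part of these differences in the tissue comparisons was not tested. *Cd8a* did not exceed 6.15 TPM in any library. Together with *Cd8b1* it summed to a median of 5.84 TPM over all libraries. That sum reached 36.6 TPM in tumor_70_b, 29.2 TPM in the treated spleen_74_a and 18.5 TPM in tumor_79_a. Macrophage and microglia genes (14 markers) summed to 30.4 to 98.6 TPM in splenic libraries after IgG2a and to 21.3 to 292 TPM after αPD1 + αGITR, against 78 to 5113 TPM and 56.6 to 2333 TPM in GBM libraries. The GBM IgG2a library labelled tumor_79_a held the highest sum, and it also held 561 TPM of NK cell and innate lymphoid markers. The GBM IgG2a library labelled tumor_369_a had the fewest genes above 1 TPM and the highest *Il7r* (277 TPM), a gene low in Treg cells. Several values that tumor_79_a or tumor_369_a decided are also given without them.

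**Figure D1:**
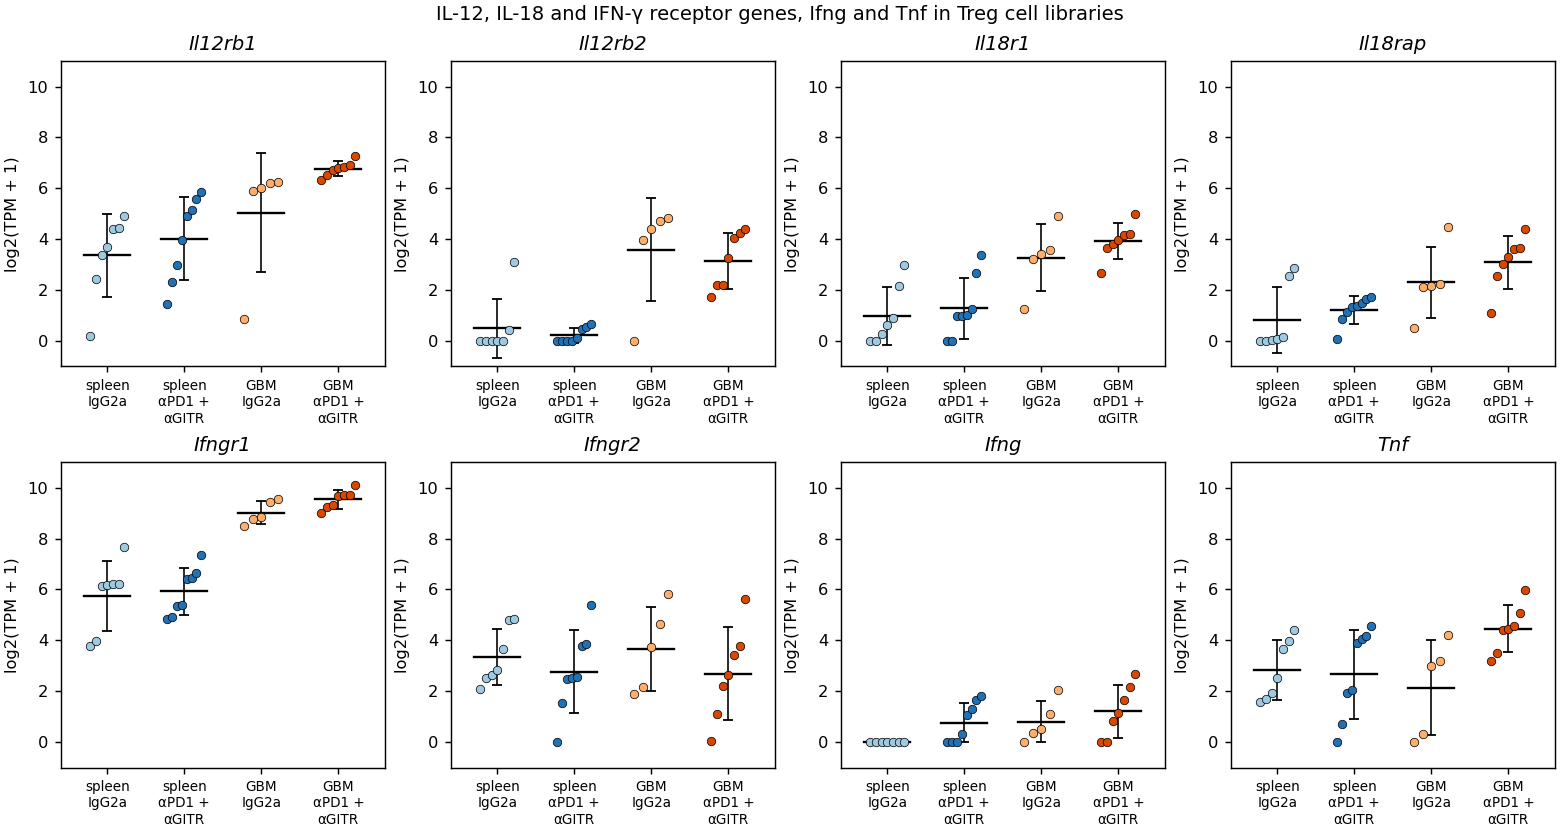
Levels of the 8 genes in each library, as log2(TPM + 1), for splenic and GBM Treg cells after IgG2a (n = 7 and n = 5) and αPD1 + αGITR (n = 8 and n = 7). Points are libraries in order of value, bars are means and whiskers are SD. *Ifngr1* in all GBM libraries lies above all splenic libraries, *Ifngr2* overlaps between all groups, and *Ifng* is at 0 in all 7 splenic libraries after IgG2a.

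The chains of the IFNγ receptor differed in level and in pattern. *Ifngr1*, the ligand-binding chain, was abundant in GBM Treg cells, while *Ifngr2*, the chain that completes the signalling complex, was low in both tissues. After IgG2a *Ifngr1* was listed in GBM Treg cells at 362, 431, 458, 698 and 753 TPM. In splenic Treg cells after IgG2a it ranged from 12.7 to 201 TPM with a median of 70.3 TPM. No splenic library reached the lowest GBM library. The means were 540.4 ± 174 TPM (SD, n = 5) and 73.7 ± 62.7 TPM (SD, n = 7), a log2 fold change of 3.29 (SE 0.76, limma adjusted p = 0.0310). By exact permutation p was 0.00126, the lowest value possible for 5 and 7 libraries, or 0.141 when adjusted over all genes, where the exact test called 0 genes (759 at an unadjusted p under 0.05).

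After αPD1 + αGITR the difference was of like size. *Ifngr1* ranged from 515 to 1102 TPM with a median of 804 TPM in GBM Treg cells, and from 27.5 to 162 TPM with a median of 62.7 TPM in splenic Treg cells. All 7 GBM libraries lay above all 8 splenic libraries. The means were 765 ± 194 TPM (SD, n = 7) and 71.2 ± 46.3 TPM (SD, n = 8), a log2 fold change of 3.62 (SE 0.45, limma adjusted p = 4.28e-05, exact permutation p = 0.000155, adjusted 0.0184). The GBM IgG2a library with most macrophage and microglia RNA, tumor_79_a, held the lowest *Ifngr1* of all GBM libraries (362 TPM). What part RNA of macrophage and microglia genes had in *Ifngr1* was not tested. Without the libraries above 1000 TPM of those genes (tumor_79_a and the treated tumor_73_a), the log2 fold change was 3.42 after IgG2a (limma adjusted p = 0.0549) and 3.67 after αPD1 + αGITR. The call after IgG2a was thus lost without tumor_79_a while the difference was not smaller. It was lost in the same way without spleen_369_a, spleen_79_d, tumor_369_a, tumor_76_a, tumor_77_a or tumor_78_a, with log2 fold changes from 2.99 to 3.42 and limma adjusted p-values up to 0.113.

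*Ifngr2* passed no test. It was listed at 2.73, 3.50, 12.4, 24.2 and 55.5 TPM in GBM Treg cells after IgG2a, and ranged from 3.23 to 27.6 TPM with a median of 6.22 TPM in splenic Treg cells. After αPD1 + αGITR it ranged from 0.030 to 47.9 TPM (median 5.26) in GBM and from 0 to 41.0 TPM (median 4.82) in splenic Treg cells. The groups overlapped almost wholly. The differences between tissues were 0.32 (SE 0.89, limma adjusted p = 0.903) after IgG2a, or -0.22 without tumor_369_a, and -0.07 (SE 0.81, adjusted p = 0.946) after αPD1 + αGITR, with standard errors too wide to detect a change of 2-fold.

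The chains were also compared as a ratio within each library, which depends on scaling only through the 1 added to each TPM. The log2 ratio of *Ifngr1* to *Ifngr2*, each with 1 added to its TPM, averaged 2.39 ± 1.44 (SD, n = 7) in splenic and 5.36 ± 1.54 (SD, n = 5) in GBM Treg cells after IgG2a. After αPD1 + αGITR it averaged 3.16 ± 1.77 (SD, n = 8) and 6.85 ± 1.99 (SD, n = 7). The differences were 2.97 (exact permutation test, p = 0.0114) and 3.70 (exact permutation test, p = 0.00373). With pseudocounts of 10 and 0.1 in place of 1 they were 2.75 and 3.01 after IgG2a, and 3.40 and 3.77 after αPD1 + αGITR. Over the 12 tests made on 3 receptors and 4 comparisons, the Benjamini-Hochberg adjusted p-values were 0.0455 and 0.0448. Both were 0.101 with a pseudocount of 0.1. Leaving out any single library of the comparison but spleen_79_b took that after IgG2a past 0.05, up to 0.0970, and no single library did so after αPD1 + αGITR. The ratio overlapped between tissues, with 3 of 5 and 4 of 7 GBM libraries above every splenic library. Treatment moved it by 1.49 in GBM (exact permutation test, p = 0.194) and by 0.76 in splenic Treg cells (exact permutation test, p = 0.388). Both chains were above 1 TPM in 7 of 7 and 7 of 8 splenic libraries and in 5 of 5 and 6 of 7 GBM libraries.

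**Figure D2:**
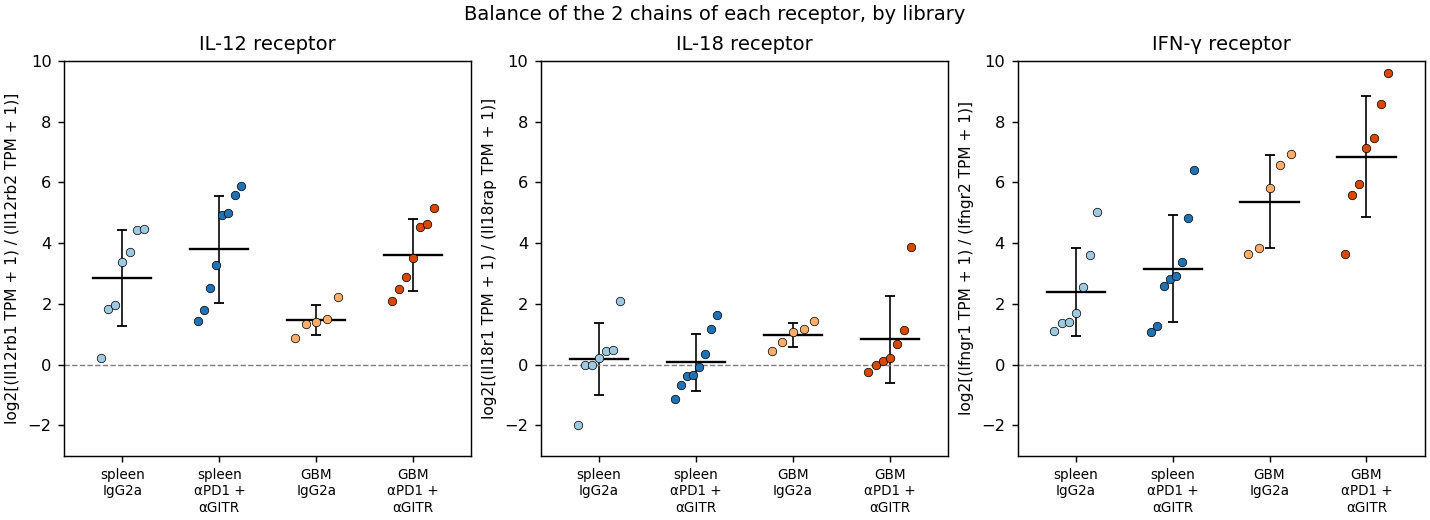
Log2 ratio of the chains of each receptor within a library, *Il12rb1* over *Il12rb2*, *Il18r1* over *Il18rap* and *Ifngr1* over *Ifngr2*, each as TPM + 1. Points are libraries of the 4 groups, bars are means, whiskers are SD, and the dashed line marks equal levels. The IFNγ receptor ratio has a higher mean in GBM than in spleen under both treatments, and the IL-12 receptor ratio in GBM moves from a mean of 1.46 after IgG2a to 3.61 after αPD1 + αGITR.

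In GRCm38, the assembly that mm10 denotes, *Ifngr1* lies on chromosome 10 from 19591949 to 19610229 and *Ifngr2* on chromosome 16 from 91547072 to 91565623, both on the plus strand. Their promoters are shown because the chains of 1 receptor differed in level. RefSeq windows of 300 bases (250 before and 50 after the start, GRCm38.p6) were found for 7 of the 8 genes, with *Il12rb1* not among them. They were searched on both strands for the STAT motif GAS (TTCNNNGAA), the T-box motif (GGTGTGA), the NF-κB motif, the AP-1 motif (TGANTCA) and the NFAT motif (GGAAAA). Matches of different motifs may share bases, although none did in these windows. Of 32851 RefSeq promoters, 8.30% hold the first, 3.98% the second, 8.46% the third, 7.81% the fourth and 23.4% the last. The window of *Ifngr1* (chr10:19591699-19591998, plus strand) held no match, and that of *Ifngr2* (chr16:91546809-91547108, plus strand) held 1 NF-κB match, in capitals.
Ifngr1: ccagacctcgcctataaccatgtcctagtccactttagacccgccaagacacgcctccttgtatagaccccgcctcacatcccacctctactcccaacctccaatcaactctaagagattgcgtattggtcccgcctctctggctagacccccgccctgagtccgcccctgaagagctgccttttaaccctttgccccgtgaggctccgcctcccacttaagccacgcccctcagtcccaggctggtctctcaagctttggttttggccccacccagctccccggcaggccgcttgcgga
Ifngr2: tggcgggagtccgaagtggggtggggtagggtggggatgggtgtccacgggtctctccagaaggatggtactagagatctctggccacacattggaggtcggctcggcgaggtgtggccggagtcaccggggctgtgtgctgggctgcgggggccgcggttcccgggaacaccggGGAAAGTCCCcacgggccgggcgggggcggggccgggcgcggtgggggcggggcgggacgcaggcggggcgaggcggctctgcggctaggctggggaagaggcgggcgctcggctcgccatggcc

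The IL-12 receptor genes were both higher in GBM than in splenic Treg cells after αPD1 + αGITR. *Il12rb2*, the chain specific to IL-12, was close to 0 in the spleen. It was listed at 0 in 5 of 7 splenic libraries after IgG2a, the others at 0.36 and 7.65 TPM, and did not exceed 0.60 TPM in the 8 splenic libraries after αPD1 + αGITR. Its GBM levels were 0, 14.8, 20.4, 25.0 and 27.7 TPM after IgG2a, and they ranged from 2.36 to 19.9 TPM (median 8.70) after αPD1 + αGITR. Each of the 7 treated GBM libraries lay above each splenic library of that treatment. The log2 fold change was 2.93 (SE 0.66, limma adjusted p = 0.00702, exact permutation p = 0.000155). It was 0.90 with a pseudocount of 10 and 5.21 with 0.1, both called, and under quantile normalization 1.79 (limma adjusted p = 0.0938). The treated GBM mean of 10.2 TPM barely passed the filter, and without tumor_72_a, tumor_74_a or tumor_80_a the gene was not tested. Since *Il12rb2* entered only through its GBM mean, it was also tested with no filter over 42667 features, where its limma adjusted p was 0.00539. After IgG2a the difference was of like size, 3.08 (SE 1.02), but missed the adjusted threshold (limma adjusted p = 0.208, exact permutation p = 0.0101), and 4 of 5 GBM libraries lay above all splenic ones. The one GBM library at 0 was tumor_369_a, and without it the log2 fold change was 3.98 (limma adjusted p = 0.0414).

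*Il12rb2* lies on chromosome 6 from 67291318 to 67376188, minus strand. Of its 3794 exonic bases, 1519 (40.0%) are shared with *Serbp1*, a gene on the plus strand that encodes an mRNA-binding protein, and since Nextera XT libraries do not mark the strand, reads from the shared bases cannot be told apart. *Serbp1* was listed at 302 to 1604 TPM in splenic and 301 to 1022 TPM in GBM Treg cells after IgG2a, and at 123 to 934 TPM and 405 to 863 TPM after αPD1 + αGITR. Its differences between tissues were -0.57 (SE 0.70, limma adjusted p = 0.759) and 0.84 (SE 0.46, adjusted p = 0.166). All 7 splenic libraries after IgG2a held 302 TPM or more of *Serbp1*, the 5 with *Il12rb2* at 0 and that with 7.65 TPM alike. What part of the *Il12rb2* values comes from the shared bases was not tested. The promoter window of *Il12rb2* (chr6:67376139-67376438, minus strand), shown because this gene was all but unlisted in 1 tissue, held 1 GAS and 1 NF-κB match, in capitals.
Il12rb2: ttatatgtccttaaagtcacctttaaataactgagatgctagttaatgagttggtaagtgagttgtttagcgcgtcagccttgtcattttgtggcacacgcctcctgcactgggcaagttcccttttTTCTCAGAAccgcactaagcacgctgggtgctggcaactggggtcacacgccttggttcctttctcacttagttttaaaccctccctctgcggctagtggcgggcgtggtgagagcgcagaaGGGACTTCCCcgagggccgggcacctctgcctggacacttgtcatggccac

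*Il12rb1*, the chain shared with the IL-23 receptor (chromosome 8 from 70808449 to 70821424), was listed in every library. It ranged from 0.16 to 29.5 TPM (median 12.1) in splenic Treg cells after IgG2a and from 1.71 to 57.4 TPM (median 21.8) after αPD1 + αGITR. The GBM levels were 0.84, 58.8, 64.1, 72.9 and 74.4 TPM after IgG2a, and they ranged from 80.1 to 152 TPM (median 109) after αPD1 + αGITR. The 7 treated GBM libraries lay above all others of the series. Between tissues the log2 fold change was 2.74 (SE 0.61, limma adjusted p = 0.00618, exact permutation p = 0.000466) after αPD1 + αGITR and 1.69 (SE 0.97, limma adjusted p = 0.574, exact permutation p = 0.165) after IgG2a, which without tumor_369_a was 2.73 (limma adjusted p = 0.163). Between treatments in GBM it was 1.72 (SE 0.74, limma p = 0.0303, adjusted p = 0.190) with no overlap of the groups (exact permutation p = 0.00126, adjusted 0.0751), and in spleen 0.66 (SE 0.81, limma adjusted p of 1.00). Without tumor_369_a the treatment difference in GBM was 0.68 (limma adjusted p = 0.276), and 7 of 7 treated libraries remained above the other 4.

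The chains of the IL-12 receptor did not move in step with treatment. In GBM Treg cells the log2 ratio of *Il12rb1* to *Il12rb2* averaged 1.46 ± 0.49 (SD, n = 5) after IgG2a and 3.61 ± 1.18 (SD, n = 7) after αPD1 + αGITR, with 6 of 7 treated libraries above every IgG2a library. The difference was 2.15 (exact permutation test, p = 0.00758, adjusted 0.0455 over the 12 ratio tests). It ran from 1.89 to 2.40 with single libraries left out, and was 1.58 with a pseudocount of 10 and 1.84 with 0.1. The adjusted p was 0.101 with a pseudocount of 0.1 and up to 0.0848 without tumor_369_a, tumor_76_a, tumor_77_a, tumor_78_a or tumor_79_a, so this difference holds at the adjusted threshold only with all IgG2a libraries. The highest treated ratios were those of tumor_70_a (5.17), tumor_73_a (4.62), tumor_73_b (4.53) and tumor_70_b (3.50), which share label numbers in pairs. The other treated ratios were 2.09, 2.49 and 2.87, and the highest after IgG2a was 2.23. If a pair shared a mouse, the p of this difference would be too small. *Il12rb2* itself differed by -0.43 between treatments (SE 0.84, limma adjusted p = 0.763), and by -1.33 without tumor_369_a (limma adjusted p = 0.286). Both chains were above 1 TPM in 1 of 7 and 0 of 8 splenic libraries, after IgG2a and αPD1 + αGITR, and in 4 of 5 and 7 of 7 GBM libraries.

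The IL-18 receptor genes are neighbours on the plus strand of chromosome 1, *Il18r1* from 40465552 to 40500854 and *Il18rap* from 40515362 to 40551705, with 14507 bases between them. Both were low in the spleen and had higher medians in GBM, where *Il18rap* stayed low after IgG2a in all libraries but tumor_79_a. *Il18r1*, the ligand-binding chain, ranged from 0 to 6.84 TPM (median 0.55) in splenic Treg cells after IgG2a and from 0 to 9.49 TPM (median 1.00) after αPD1 + αGITR. In GBM its levels were 1.38, 8.34, 9.64, 10.8 and 29.2 TPM after IgG2a, and they ranged from 5.32 to 30.9 TPM (median 14.6) after αPD1 + αGITR. In each treatment 1 GBM library fell within the splenic range and the others lay above it. The log2 fold change was 2.64 (SE 0.63, limma adjusted p = 0.00941, exact permutation p = 0.000932) after αPD1 + αGITR, with a limma adjusted p of 0.0291 when no filter was set, and it was 1.04 with a pseudocount of 10 and 3.83 with 0.1. After IgG2a it was 2.28 (SE 0.96, limma adjusted p = 0.409, exact permutation p = 0.0126). Treatment in GBM gave 0.65 (SE 0.67, limma adjusted p = 0.541), which was 0.14 without tumor_369_a and which quantile normalization turned to -0.061.

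*Il18rap*, the accessory chain, never reached a group mean of 10 TPM and so did not pass the filter. It ranged from 0 to 6.35 TPM (median 0.060) and from 0.050 to 2.35 TPM (median 1.57) in splenic Treg cells after IgG2a and αPD1 + αGITR. In GBM Treg cells it was listed at 0.43, 3.36, 3.43, 3.74 and 21.1 TPM after IgG2a and ranged from 1.16 to 20.3 TPM (median 8.75) after αPD1 + αGITR. The highest of the 5 was tumor_79_a, which also held the highest *Il18r1* of its group. After αPD1 + αGITR the GBM mean was 9.30 ± 6.05 TPM (SD, n = 7) and the splenic mean 1.45 ± 0.74 TPM (SD, n = 8), with 6 of 7 GBM libraries above all splenic ones (exact permutation test, p = 0.00140, not adjusted). With no filter the log2 fold change was 1.88 (SE 0.48, limma adjusted p = 0.0842). Without tumor_70_b the gene passed the filter and was called (2.21, limma adjusted p = 0.0337), and without tumor_73_a it passed the filter and was not called (1.97, limma adjusted p = 0.0589). After IgG2a the exact permutation test gave p = 0.107. The chain ratio averaged between 0.07 and 0.97 in the 4 groups and no comparison of it passed (exact permutation tests, p from 0.194 to 0.907). Both chains were above 1 TPM in 1 of 7 and 3 of 8 splenic and in 4 of 5 and 7 of 7 GBM libraries.

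**Figure D3:**
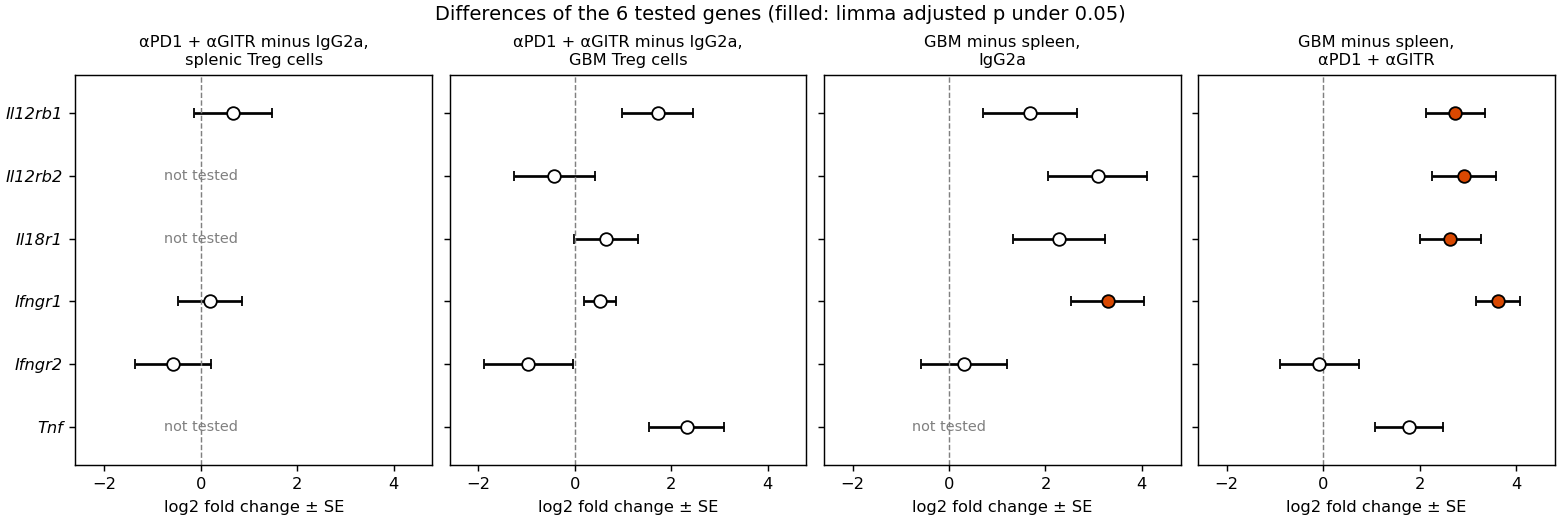
Log2 fold change (point) and standard error (whisker) of the 6 genes that could be tested, in the 4 comparisons, with filled points for a limma adjusted p under 0.05. Between tissues 1 gene passes after IgG2a and 4 pass after αPD1 + αGITR, while between treatments none of those tested passes.

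Of the 6 genes tested, 4 were called higher in GBM than in splenic Treg cells after αPD1 + αGITR (*Ifngr1*, *Il12rb1*, *Il12rb2* and *Il18r1*), where 17.5% of all genes tested were called. *Il12rb2*, *Il18r1* and *Tnf* entered that test only through their GBM mean, so this count is not support for a difference. With no filter the same 4 genes were called, where 256 of all 42667 features were. With a mean above 10 TPM asked of each group 2 of 3 were called (*Ifngr1* and *Il12rb1*), where 565 of all 4966 genes were. After IgG2a 1 of 5 was called (*Ifngr1*), against 0.569% of all genes, and 0 of 3 with that filter on each group, where 9 of all 4476 genes were called. By the looser rule these counts were 5 of 6 against 40.2%, and 3 of 5 against 9.93%. The groups did not overlap for 3 of 6 genes after αPD1 + αGITR (2.96% of all genes in that direction) and for 1 of 5 after IgG2a (1.25%). The median log2 fold change of all genes after αPD1 + αGITR was 0.95 as deposited, 0.27 with TMM-type factors and 0.15 with quantile normalization, and the share called higher depended on scaling. Of the genes called after αPD1 + αGITR, 1189 were higher and 121 lower as deposited, 283 and 321 with TMM-type factors, and 443 and 651 with quantile normalization. After IgG2a the splits were 36 and 6, 32 and 16, and 58 and 44. *Ifngr1*, *Il12rb1* and *Il18r1* kept their call after αPD1 + αGITR under each of these scalings. Fewer cells with a transcript and less RNA per cell cannot be told apart in bulk libraries.

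The cytokine genes gave another picture. *Ifng* (chromosome 10 from 118441046 to 118445892), the Th1 cytokine itself, was at most 5.41 TPM in any library and did not pass the filter. With no filter its limma adjusted p-values in the 4 comparisons ran from 0.648 to 0.853. It was listed at 0 in all 7 splenic libraries after IgG2a and ranged from 0 to 2.51 TPM (median 0.67) after αPD1 + αGITR. In GBM Treg cells it was listed at 0, 0.27, 0.43, 1.17 and 3.16 TPM after IgG2a and ranged from 0 to 5.41 TPM (median 1.19) after αPD1 + αGITR. The last pair of groups overlapped (exact permutation test, p = 0.473). It was listed above 0 in 4 of 5 GBM libraries after IgG2a and in 5 of 8 splenic libraries after αPD1 + αGITR. Set against the splenic IgG2a libraries these gave exact permutation p-values of 0.0101 and 0.0443, not adjusted, in comparisons with a group listed at 0 throughout and at unknown depth. In the annotation 336 of its 1295 exonic bases (25.9%) are shared with *Gm49751* on the same strand.

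*Tnf*, a cytokine of Th1 cells and macrophages (chromosome 17 from 35199381 to 35202007, minus strand), had the largest treatment difference in GBM of the 6 genes tested when all libraries were kept. It was listed at 0, 0.23, 7.00, 8.22 and 17.4 TPM in GBM Treg cells after IgG2a and ranged from 8.12 to 61.6 TPM (median 20.8) after αPD1 + αGITR. The treated libraries overlapped the IgG2a libraries, with 5 of 7 above all 5. The means were 6.57 ± 7.14 TPM (SD, n = 5) and 25.3 ± 18 TPM (SD, n = 7), a log2 fold change of 2.31 (SE 0.79, limma p = 0.00799, adjusted p = 0.133, exact permutation p = 0.0114, adjusted 0.103). The 2 lowest IgG2a libraries were tumor_79_a and tumor_369_a, and without both the difference was 0.99 (limma adjusted p = 0.319), smaller than the -1.26 of *Il12rb2*. In splenic Treg cells *Tnf* ranged from 1.95 to 20 TPM (median 4.76) after IgG2a and from 0 to 22.9 TPM (median 8.47) after αPD1 + αGITR. That comparison did not pass the filter, and with no filter it gave -0.15 (SE 0.75, limma adjusted p = 0.973, exact permutation p = 0.854). Whether treatment acted differently in both tissues was tested directly as an interaction over all 4 groups, which gave 2.46 for *Tnf* (SE 1.13, limma adjusted p = 0.380). After αPD1 + αGITR the difference between tissues was 1.79 (SE 0.70, limma adjusted p = 0.0690). The GBM library with most macrophage RNA, tumor_79_a, held *Tnf* at 0. The treated GBM library tumor_73_a, with 2333 TPM of macrophage and microglia genes, held 22.6 TPM of *Tnf*, near its group's median. Whether macrophage RNA contributed to *Tnf* was not tested.

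The window at the start of *Tnf* (chr17:35201958-35202257, minus strand), shown because *Tnf* was 1 of the 2 genes past the looser rule between treatments in GBM, held 2 NFAT matches, in capitals. That of *Ifng* held 1 GAS match, those of *Il18rap* and of 2 of the 3 listed starts of *Il18r1* held no match, and the remaining start of *Il18r1* held 2 GAS and 1 NFAT matches.
Tnf: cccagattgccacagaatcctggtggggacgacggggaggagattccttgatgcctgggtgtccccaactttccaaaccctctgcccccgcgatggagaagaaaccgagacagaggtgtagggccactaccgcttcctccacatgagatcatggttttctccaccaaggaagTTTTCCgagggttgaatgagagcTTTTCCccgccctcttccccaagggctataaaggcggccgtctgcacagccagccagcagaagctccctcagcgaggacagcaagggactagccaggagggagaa

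No treatment difference in these genes was past the adjusted threshold. In GBM Treg cells 0 of 6 genes tested were called by limma, as was 0% of all genes tested (1749 genes at an unadjusted p under 0.05, and 0 genes by the adjusted exact permutation test). By the looser rule *Il12rb1* and *Tnf* passed, 2 of 6, against 21.7% of all genes. *Il12rb1* was the only gene tested of the 8 whose treated libraries all lay above the IgG2a libraries, against 1.77% of all genes. *Ifngr1* differed by 0.52 (SE 0.33, limma adjusted p = 0.336, exact permutation p = 0.0568), which TMM-type factors turned to -0.18, and *Ifngr2* by -0.97 (SE 0.92, limma adjusted p = 0.512), or -0.43 without tumor_369_a. In splenic Treg cells 0 of the 3 genes tested were called, against 0% of all genes (168 genes at an unadjusted limma p under 0.05), and 0 passed the looser rule, against 2.53%. There *Ifngr1* differed by 0.19 (SE 0.66) and *Ifngr2* by -0.58 (SE 0.78). In the interaction 0 of 6 were called, against 0% of all genes (1056 at an unadjusted limma p under 0.05), and 1 passed the looser rule, *Tnf*, against 12.2%. The interaction of *Il12rb1* was 1.05 (SE 1.15, limma adjusted p = 0.748), and 0.012 without tumor_369_a (limma adjusted p = 0.997).

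Within each group the order of levels was led by *Ifngr1*. In GBM Treg cells after IgG2a *Il12rb1* came next (54.2 ± 30.5 TPM, SD, n = 5), followed by *Ifngr2* (19.7 ± 21.8), *Il12rb2* (17.6 ± 11), *Il18r1* (11.9 ± 10.4), *Tnf* (6.57 ± 7.14), *Il18rap* (6.42 ± 8.34) and *Ifng* (1.01 ± 1.28). This order rests in part on single libraries. Without tumor_369_a *Ifngr2* averaged 10.7 TPM, below *Il12rb2* (22.0) and *Il18r1* (14.5), and without tumor_79_a *Il18r1* averaged 7.54 TPM and *Il18rap* 2.74 TPM. With all libraries, from *Ifngr2* to *Il18rap* each differed from the next by less than its SD. After αPD1 + αGITR the order was *Ifngr1*, *Il12rb1* (110.0 ± 23.0 TPM, SD, n = 7), *Tnf*, *Il18r1* (15.7 ± 7.83), *Ifngr2* (11.5 ± 16.7), *Il12rb2* (10.2 ± 7.47), *Il18rap* and *Ifng* (1.86 ± 2.00), with neighbours from *Tnf* to *Il18rap* within their SD. Splenic Treg cells after IgG2a had *Il12rb1* (13.8 ± 10.3 TPM, SD, n = 7), *Ifngr2* (12.2 ± 10.5) and *Tnf* (8.31 ± 7.20) within their SD of each other below *Ifngr1*. Under them *Il18r1* (1.70 ± 2.56), *Il18rap* (1.62 ± 2.74) and *Il12rb2* (1.14 ± 2.87) were likewise within their SD. After αPD1 + αGITR the splenic order was *Il12rb1* (24.4 ± 20.9 TPM, SD, n = 8), *Ifngr2* (10.4 ± 13.2), *Tnf* (9.48 ± 8.84), *Il18r1* (2.40 ± 3.33), *Il18rap*, *Ifng* (0.93 ± 1.02) and *Il12rb2* (0.19 ± 0.25).

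Genes that act with these receptors were taken from fixed lists. The cytokines that would engage the receptors were scarce in the libraries. *Il12b*, the p40 chain of IL-12, did not exceed 0.48 TPM. *Il18* was listed at 0 to 31.4 TPM with a median of 0 in each group, and *Il18bp*, the soluble inhibitor of IL-18, averaged 4.09 to 6.06 TPM. *Il23r*, the partner of IL-12Rβ1 in the IL-23 receptor, did not exceed 1.07 TPM. Of the list of IL-12 and IL-23 ligands and receptors 2 of 7 could be tested between tissues. After αPD1 + αGITR 1 of the 2, *Ebi3*, a chain of IL-27 and IL-35, was higher in GBM (3.15, SE 0.84, limma adjusted p = 0.0176), where 17.5% of all genes were called. Its call was lost with TMM-type factors and when rescaled without the 10 most abundant features. *Stat4*, the transducer of IL-12, averaged 14.7 to 26.0 TPM and differed by 0.18 and 0.52 between tissues (SE 0.87 and 0.55, limma adjusted p = 0.949 and 0.459). Of 3 IL-12 signalling genes tested, 1, *Stat3*, was called higher in GBM after αPD1 + αGITR (2.00, SE 0.68, limma adjusted p = 0.0444), against 17.5% of all genes. That call was lost with TMM-type factors, quantile normalization, rescaling and without the libraries rich in macrophage RNA, and between treatments in GBM it passed only the looser rule (1.60, adjusted p = 0.209).

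*Il1rl1*, which encodes the IL-33 receptor and belongs to the same family as *Il18r1*, ranged from 13.5 to 44.5 TPM in GBM and from 0 to 8.31 TPM in splenic Treg cells after αPD1 + αGITR, with no overlap. Its log2 fold change was 3.52 (SE 0.58, limma adjusted p = 0.000590, or 0.00185 with no filter, since it entered only through its GBM mean). After IgG2a it was 3.07 (SE 0.96, limma adjusted p = 0.169). *Il1r2*, a decoy receptor for IL-1, passed the looser rule in both comparisons (3.14 and 1.94), where it too entered only through GBM. Among 8 tested genes of IL-18 signalling, *Myd88* was the one called (2.07, SE 0.60, limma adjusted p = 0.0248, after αPD1 + αGITR), 1 of 8 against 17.5% of all genes. The call was lost under the same 4 alternatives as that of *Stat3*. *Nfkbia*, an inhibitor of NF-κB, passed the looser rule (1.44). *Tnfrsf1b*, the TNFR2 receptor, ranged from 145 to 369.8 TPM in GBM and from 11.2 to 75.5 TPM in splenic Treg cells after αPD1 + αGITR (2.40, SE 0.48, limma adjusted p = 0.00297). It was called beside 1 other of 9 TNF receptor and signalling genes, *Tnfaip3*, which restrains NF-κB (1.86, limma adjusted p = 0.0498), and under each of those 4 alternatives 1 of the 9 was called. The share of 2 in 9 is near the 17.5% of all genes. *Tnfrsf1a* gave 1.28 (SE 0.59, limma adjusted p = 0.106).

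Genes that IFNγ induces were mostly higher in GBM Treg cells after αPD1 + αGITR. Of 24 listed genes 19 were tested and 16 were called, all higher, against 17.5% of all genes, with a median of 2.07 against 0.95. Of these, 3 genes entered only through their GBM mean, and of the 16 above 10 TPM in both groups 13 were called, with a median of 1.90. *Cxcl10*, a chemokine (3.19, SE 0.66, limma adjusted p = 0.00355), and *Irgm1*, an immunity-related GTPase (2.95, SE 0.63, adjusted p = 0.00468), were among the 3. Of the others *Socs1*, a feedback inhibitor of the pathway, gave 2.68 (SE 0.72, limma adjusted p = 0.0178), and *Igtp*, another such GTPase, gave 2.62 (SE 0.47, adjusted p = 0.00125). *Irf1*, a transcription factor of the interferon response, gave 1.47 (SE 0.53, limma adjusted p = 0.0533). With TMM-type factors 5 of the 19 were called, with quantile normalization 14, and with the libraries above 1000 TPM of macrophage genes left out 15. Rescaled without the 10 most abundant features, 8 of 22 tested were called. Over all genes these settings called 604 and 1094 of 7506, 696 of 7419 and 467 of 11734, in that order. Several of these genes also respond to type I interferon and are expressed by macrophages.

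After IgG2a 0 of the 19 tested passed limma's adjusted threshold. By the looser rule 6 of 19 passed, against 9.93% of all genes, all higher in GBM (among them *B2m*, *Igtp*, *Irf1*, *Psmb9* and *Tap1*, from 1.51 to 2.95), with a median of 1.51 against 0.48 for all genes. Between treatments in GBM 5 of 19 passed the looser rule, near the 21.7% of all genes (*Iigp1*, *Gbp2*, *Irgm1*, *Psmb8* and *Tap2*, from 1.01 to 1.93), the median was 0.84 against 0.62 for all genes, and 0 were called by limma. In splenic Treg cells 0 of 16 were called and 0 passed the looser rule. *Jak1*, which transmits the IFNγ signal, differed by 1.07 between treatments in GBM (SE 0.48, limma adjusted p = 0.203).

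Th1 partner genes were also mostly higher in GBM after αPD1 + αGITR. Of 16 tested after αPD1 + αGITR 14 were called higher in GBM, against 17.5% of all genes, with a median of 2.85 against 0.95. With TMM-type factors 9 were called, with quantile normalization 10, and rescaled without the 10 most abundant features 11 of 17. Over all genes these settings called 604 and 1094 of 7506 and 467 of 11734. Of 14 tested after IgG2a 6 were called higher, against 0.569% of all genes, with a median of 3.19 against 0.48. With TMM-type factors and with quantile normalization 5 were called, where 48 and 102 of all 7380 genes were. Of the 14, 10 entered only through their GBM mean, as did 8 of the 16 after αPD1 + αGITR, so these counts are not support for a difference. Among those above 10 TPM in both groups, 6 of 8 were called after αPD1 + αGITR (median 2.42) and 0 of 4 after IgG2a (median 0.76). The largest differences of the whole list were those of *Gzmb*, a granzyme (6.67, SE 0.58, and 7.52, SE 0.80), the chemokine gene *Ccl4* (5.14, SE 0.77, and 7.09, SE 0.84), *Nkg7*, of cytotoxic granules (4.39, SE 0.61, and 4.49, SE 0.94), and the chemokine receptor gene *Cxcr6* (3.80, SE 0.67, and 4.46, SE 0.92). *Tbx21*, the master factor of Th1 cells, ranged from 62.2 to 169 TPM in GBM and from 0 to 51.1 TPM in splenic Treg cells after αPD1 + αGITR (3.73, SE 0.83, limma adjusted p = 0.00606). After IgG2a it gave 2.87 (SE 0.99, limma adjusted p = 0.250). Without the libraries tumor_369_a and tumor_79_a, 3 of 13 Th1 partners were called after IgG2a, and without tumor_79_a alone likewise 3 of 13. Between treatments in GBM 2 of 16 passed the looser rule, *Txk* (2.43) and *Cxcr3* (1.82), against 21.7% of all genes. By limma 0 of the 16 were called. *Tbx21* differed there by 1.38 (SE 0.68, limma adjusted p = 0.238) and *Stat4* by 0.80 (SE 0.66, limma adjusted p = 0.457). Neither of them passed the looser rule. Of the cytokines of other T cell lineages, *Il10* passed the looser rule in both comparisons of tissues (3.04 after IgG2a and 2.12 after αPD1 + αGITR), 1 of 3 and 1 of 1 tested. It entered both only through its GBM mean, and 9.93% and 40.2% of all genes passed that rule there.

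**Figure D4:**
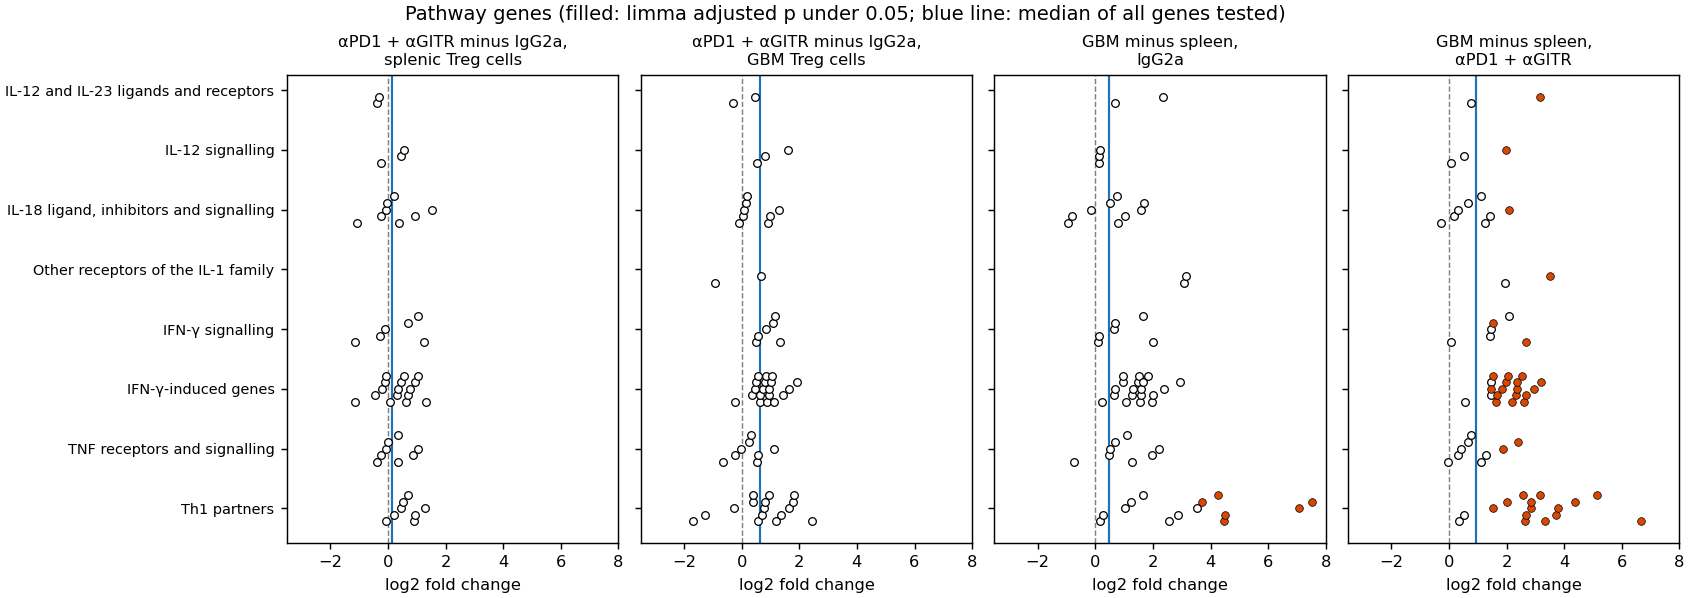
Log2 fold change of each tested gene of the pathway lists, in the 4 comparisons, with 1 point per gene, filled where the limma adjusted p was under 0.05. The dashed line marks 0 and the blue line the median of all genes tested. After αPD1 + αGITR 16 of 19 IFNγ-induced genes and 14 of 16 Th1 partners are filled between tissues, and between treatments no point is.

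Across the 27 libraries the receptor genes other than *Ifngr2* varied together. Spearman's rho was 0.82 for *Il18r1* with *Ifngr1*, 0.76 for *Il12rb1* with *Ifngr1*, 0.74 for *Il18r1* with *Il18rap* and 0.68 for *Il12rb1* with *Il12rb2*. For *Ifngr1* with *Ifngr2* it was 0.03. *Ifng* and *Tnf* gave 0.15 with each other. The libraries share tissues, treatments and scaling, so these values describe likeness only. Among 8687 genes with a mean TPM above 10 in a group, those most like *Ifngr1* were *Tnfrsf9* (0.95), *Igtp* (0.95) and *Cd2* (0.95). Those most like *Il12rb1* were *Impa2* (0.89), *Ctnna1* (0.89) and *Gbp7* (0.88), those most like *Il12rb2* were *Sppl2a* (0.80), *Ctla2a* (0.78) and *Bnip3* (0.78), and those most like *Il18r1* were *Gnptg* (0.87), *Capg* (0.86) and *Rhoa* (0.86). *Il18rap* was closest to *Tec* (0.80), *Rab8b* (0.76) and *Ugdh* (0.76). *Ifngr2* had no gene above 0.69 (*Xpr1*, then *Napa* at 0.68 and *Gm12216* at 0.63). *Ifng* was closest to *Arl5b* (0.72), *Il10* (0.71) and *Il10rb* (0.68), and *Tnf* to *Dolpp1* (0.77), *Chic2* (0.77) and *Slc52a3* (0.74).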

How the data were processed

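RNA of sorted Treg cells was sequenced on a NextSeq500 instrument after Smart-Seq2 and Nextera XT library preparation. The authors aligned reads to mm10 with TopHat2 and calculated TPM with RSEM; versions and annotation are not given in the sources used here. The deposited table holds TPM plus 1, another unit than TPM itself, for 53801 features, without the filters the study describes. One was subtracted to recover TPM. Of 28 libraries 27 were used, and 1 unnamed column was left out. Groups follow the labels. No pair of the 351 library pairs was identical.

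limma 3.58.1 (R 4.3.3; lmFit, eBayes with trend) was run on log2(TPM + 1) with only the 2 groups compared, or all 4 for the interaction. Permutations, ratios and Spearman correlations were computed in Python 3.11.15. The tests were checked on simulated data. Positions come from GENCODE vM21 and promoters from RefSeq. Named genes were the 8 members, 11 direct partners whatever their values, up to 4 genes past a rule for each list and comparison (more where a count is spelled out), and the 3 genes most like each member. Members, lists and motifs were chosen with earlier results of these data known. Label numbers shared by libraries of both tissues did not pair them. Alternatives were other pseudocounts, filters, scalings, library weights, covariates, a block and left-out libraries. Leaving out 2 libraries together, or those rich in macrophage RNA, and the alternatives for the ratios were added after seeing the data. A single gene of the lists is counted but not reported here.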

Additional observations from a re-analysis of the deposited data

Results flagged for a closer look

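In the 31 groups of values that could be examined, 3 held a library farther from the rest than expected at the 95% level, where chance alone gives about 1 in 20. *Il12rb1* in GBM Treg cells after IgG2a was listed at 0.84 TPM in library tumor_369_a, against 58.8 TPM or more in the other 4. In the same library *Il12rb2* was listed at 0 TPM, against 14.8 TPM or more in the others. In splenic Treg cells after IgG2a, *Il12rb2* was listed at 7.65 TPM in library spleen_369_a, against at most 0.36 TPM in the other 6. Library tumor_369_a also had the fewest genes above 1 TPM (7702) and *Il7r* at 277 TPM. What part these play in the values of *Il12rb1* and *Il12rb2* was not tested.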

How the results depend on the processing

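Over 22 results for the 6 genes tested with limma and 567 recomputed values, 14 lost the call, 5 gained it and 22 changed sign, none of the last having been called, and the others kept direction and side of the threshold. Between tissues after IgG2a, the 1 gene called became 0 with a pseudocount of 0.1, no filter, a filter on each group, a replicate block, without tumor_369_a and tumor_79_a together, or without libraries rich in macrophage RNA. It became 4 with library weights (*Il12rb1*, *Il12rb2* and *Il18r1* added) and 2 with all 4 groups in one fit, and leaving out single libraries gave 0 to 1. The log2 fold change of *Ifngr1* there ran from 2.85 to 3.42 over these alternatives, and to 3.61 without spleen_79_b, and its limma adjusted p from 0.000804 to 0.338, the last with the replicate block (3.10), which lowered the genes called from 42 to 2. After αPD1 + αGITR the 4 genes called became 3 with quantile normalization, where *Il12rb2* lost its call (adjusted p = 0.0938), 2 with a filter on each group, since *Il12rb2* and *Il18r1* were then not tested, again 3 without tumor_72_a, tumor_74_a or tumor_80_a, where *Il12rb2* was not tested, and 5 without tumor_70_b. The replicate block kept that count at 4, with 495 genes called against 1310 without it. It changed no other call of these genes. Label numbers shared between tissues did not pair libraries (correlations of deviations from -0.16 to 0.18).

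Signs changed as follows. For treatment in GBM, *Il12rb2* was 0.079 with a pseudocount of 0.1 and 0.0043 without libraries rich in macrophage RNA, *Il18r1* was -0.061 with quantile normalization, *Ifngr1* was -0.18 with TMM-type factors, and *Ifngr2* was 0.082 without tumor_369_a and tumor_79_a. For treatment in spleen, *Ifngr1* was -0.014 with TMM-type factors, -0.16 with library weights and -0.14 to 0.51 without single libraries. Between tissues after IgG2a, *Ifngr2* was -0.69 with quantile normalization, -0.042 when rescaled without the 10 most abundant features, -0.91 with library weights, -0.74 without both libraries, and -0.22 to 0.76 without single libraries. After αPD1 + αGITR it was 0.0092 with a pseudocount of 10 and -0.56 to 0.37 without single libraries. The causes were not tested.

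Over all genes, those called by limma ranged over the alternatives from 0 to 263 for treatment in GBM, from 2 to 262 between tissues after IgG2a and from 256 to 2123 after αPD1 + αGITR. Leaving out tumor_73_b gave 103 for treatment in GBM, leaving out single libraries gave 23 to 75 after IgG2a (without tumor_77_a and without spleen_79_b), and after αPD1 + αGITR 591 without tumor_70_b and 2279 without spleen_73_a. Since read depth is unknown, no detection limit can be given for *Ifng* or splenic *Il12rb2*.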
